A study of Homo sapiens with 6 samples.

Results

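Aminoacyl-tRNA synthetases and the pair of scaffold proteins AIMP1 and AIMP2 were examined in RNA-seq data of HEK-293T cells, a human embryonic kidney line, with and without THUMPD1. The 38 genes were taken by symbol from a table of 58870 genes and comprised 20 cytosolic synthetase genes, 16 mitochondrial ones (symbols that end in 2) and the 2 AIMP genes. All 38 passed the filter on low counts. The study compared 3 libraries of wild-type (WT) cells with 3 libraries of THUMPD1 knockout (KO) cells, numbered 1 to 3 in each genotype. Both were grown in the same serum-containing medium, and total RNA depleted of ribosomal RNA was sequenced. The KO cells came from a CRISPR-Cas9 edit and were sorted as single cells, so the KO is one clone, and the effect of the deletion and the history of that clone cannot be told apart. The labels do not say that the replicates were separate cultures, and p-values therefore measure only the spread between these libraries.

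Each synthetase joins an amino acid to its own tRNAs and so sets which amino acid is read at a codon. The cytosol and the mitochondrion use largely separate sets of these enzymes, both encoded in the nucleus, and several cytosolic ones sit together with the AIMP proteins in the multisynthetase complex. THUMPD1 is the adaptor through which NAT10 acetylates cytidine in leucine and serine tRNAs, which makes the leucine and serine synthetases the enzymes that charge the affected tRNAs. Many cytosolic synthetase genes are also known targets of ATF4, the transcription factor of the integrated stress response, which binds C/EBP-ATF response elements with a core of the form TGATGNAA (N is any base).

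That core was searched on both strands of the RefSeq promoter windows of GRCh38.p14, which run from 250 bases before to 50 bases after each annotated gene start. It was present for 7 of the 16 cytosolic genes with a window and for 1 of 14 mitochondrial ones, YARS2. Over all genes with a window, 4.46% held the core, and over protein-coding genes 3.60%. DARS, LARS, VARS, YARS, AARS2 and VARS2 had no entry. The sites of the 7 cytosolic genes are shown because their levels are described as a group below, for genotype and for replicate number. Each is given 5′ to 3′ on the strand of the gene with the match in capitals, which reads as the reverse complement where the core lies on the opposite strand. Distances run between an annotated start and the first base of the match along the gene, and the start itself is base 1.
AARS, 187 bases before the start, chr16:70289675-70289704: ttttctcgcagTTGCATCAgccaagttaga
CARS, 2 bases before the start, chr11:3057407-3057436: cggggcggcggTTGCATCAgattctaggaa
GARS, 33 bases before the start, chr7:30594834-30594863: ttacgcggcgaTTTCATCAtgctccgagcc
IARS, 13 bases before the start, chr9:92293692-92293721: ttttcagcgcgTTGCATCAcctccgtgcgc
MARS, 4 bases before the start, chr12:57488053-57488082: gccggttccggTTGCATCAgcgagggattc
NARS, from base 15 after the start, chr18:57621804-57621833: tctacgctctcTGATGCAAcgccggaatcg
TARS, from base 3 after the start, chr5:33440956-33440985: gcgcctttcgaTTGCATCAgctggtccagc
In 6 of the 7 genes the match lay within 33 bases of a start, and AARS was the exception. YARS2 held it 197 bases before its start, chr12:32756076-32756105: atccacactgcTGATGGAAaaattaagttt
A second motif, CCGGAAG, the core bound by ETS factors, was found for 9 of 16 cytosolic and 7 of 14 mitochondrial genes, against 12.2% of all genes with a window and 16.5% of protein-coding ones. It was common in both groups of synthetases, whereas TGATGNAA was found for 7 of 16 cytosolic genes and 1 of 14 mitochondrial ones. No match of one motif overlapped a match of the other. Both motifs were chosen after the expression values had been seen, and a match shows letters in a window, not binding.

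THUMPD1 was first checked in every library. Its level was 77.3, 84.6 and 80.8 CPM (counts scaled to the library total) in WT 1 to 3 and 10.2, 12.0 and 11.0 CPM in KO 1 to 3, a log2 fold change of -2.87 ± 0.085 (SE; limma-voom, Benjamini-Hochberg adjusted p = 3.17e-08). Library totals were 32225646 to 44099898 expected counts. Of 15088 genes tested, 13.0% were lower and 13.7% higher in the KO at an adjusted p below 0.05, with a median log2 fold change of 0.016. All 6 HEK-293T markers examined were detected, at a summed 588 to 614 CPM in WT and 526 to 578 CPM in KO libraries. Among them NEFM (log2 fold change -2.75) and KRT18 (-0.53) fell and NEFL rose (0.31), each at a limma-voom adjusted p below 0.05. VIM, KRT8 and LIN28B did not pass. Defining markers of other cell types were at or near 0 in every library (PTPRC at most 0.103 CPM, CD3E 0.0255, DCN 0.103 and CDH5 0.0621), except COL1A1 at 9.00 to 17.0 CPM.

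Cytosolic synthetase mRNAs were more abundant than their mitochondrial counterparts. Levels between genes were compared as CPM per kb of the canonical transcript. In WT cells the cytosolic genes ran from 16.4 CPM per kb (FARSB) to 154 (YARS), with a median of 69.6. The mitochondrial genes ran from 4.77 (PARS2) to 53.5 (IARS2), with a median of 14.0. Genes for the same amino acid were paired by symbol, with FARSA and FARSB each set against FARS2. EPRS, which serves both glutamate and proline, was not paired with EARS2 or PARS2. In all 15 pairs, every WT library had more of the cytosolic mRNA per kb. Among these pairs the mean ratio in WT was lowest for cysteine (CARS to CARS2, 1.18). It was highest for phenylalanine (FARSA to FARS2, 9.83), with a median of 3.78.

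**Figure D1:**
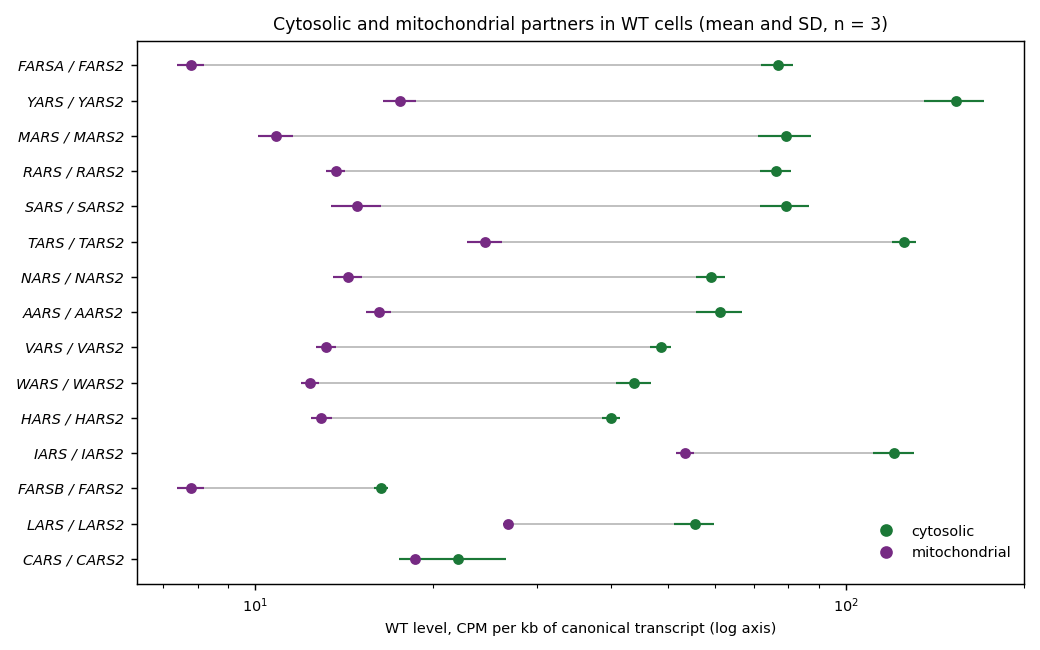
WT level of each cytosolic gene (green) and its mitochondrial partner (purple) in CPM per kb of canonical transcript on a log axis, mean with SD of 3 libraries, ordered by ratio. The green point lies to the right in all 15 pairs, from 1.18 times the partner for CARS to 9.83 times for FARSA.

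YARS, TARS (126 CPM per kb) and IARS (121) stood at the top of the order, and TARS and IARS did not differ beyond their SDs of 5.86 and 9.73. CARS (22.1 ± 4.53, SD, n = 3) and CARS2 (18.7 ± 0.349) also lay within their spread. GARS and KARS, whose transcripts encode both the cytosolic and the mitochondrial enzyme for glycine and lysine, were at 94.0 and 73.7 CPM per kb. The phenylalanine enzyme is built from equal numbers of FARSA and FARSB subunits, and their mRNAs were at 76.7 and 16.4 CPM per kb. AIMP1 and AIMP2 were at 16.5 and 36.3 CPM per kb. These levels rest on one transcript per gene, and the order would move with another choice of length.

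KO cells had less mRNA for several cytosolic synthetases. Of the 20 genes, 7 fell (VARS, QARS, AARS, EPRS, YARS, LARS and NARS), 1 rose (KARS) and 12 did not pass the test (limma-voom, adjusted p below 0.05), beside 13.0% lower and 13.7% higher among all genes. The median log2 fold change of the 20 was -0.13, against 0.016 over all genes tested. Their summed level was 4508, 4068 and 4061 CPM in WT 1 to 3 and 4030, 3797 and 3760 CPM in KO 1 to 3, or 91.7% of WT by the means. KO 1 lay just below WT 3, and the groups did not overlap. In bulk RNA, fewer cells that express a gene and less mRNA per cell cannot be told apart. With replicate number in the model the counts were 11 lower and 1 higher, beside 16.7% and 18.4% of all genes. By genotype alone, the number called in either direction depended on single libraries. It was 8 with all libraries and 4 to 9 when each was left out in turn, lowest without KO 2.

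**Figure D2:**
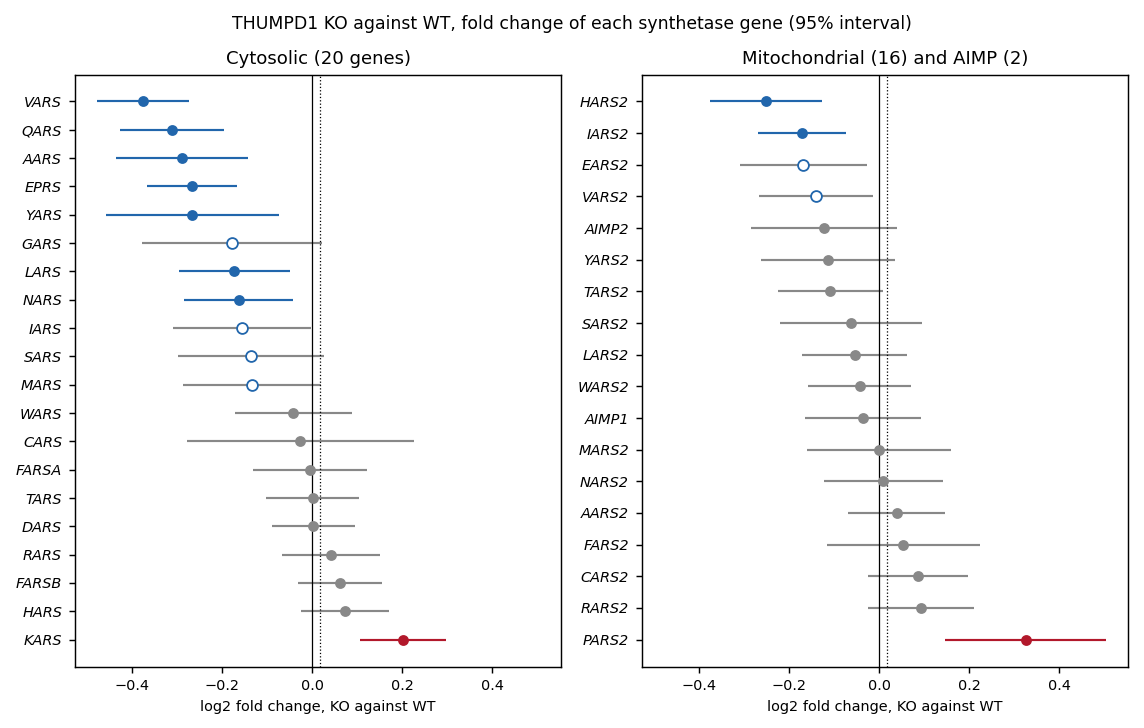
Log2 fold change of each gene in KO against WT with its 95% interval from limma-voom, 3 libraries per genotype. Blue filled points fell and red ones rose at an adjusted p below 0.05. Open blue points passed with replicate number in the model but not in the plotted fit. Grey points did not pass, and the dotted line is the median of all genes (0.016). In the cytosolic panel, 14 of 20 points lie below 0, and in the mitochondrial panel 10 of 16 do besides AIMP1 and AIMP2.

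VARS, the valine enzyme, showed the largest fold change of the cytosolic genes. It was at 208, 191 and 200 CPM in WT 1 to 3 and at 154, 152 and 162 CPM in KO 1 to 3. Each KO library lay below each WT library, which gave a log2 fold change of -0.38 ± 0.046 (SE; limma-voom adjusted p = 0.000267). QARS charges glutamine tRNAs in the cytosol and has no mitochondrial counterpart, since mitochondria make their glutamine tRNAs through an amidotransferase. QARS was at 171, 156 and 154 CPM in WT and 138, 128 and 128 CPM in KO libraries, again without overlap. The difference was -0.31 ± 0.052 on the log2 scale (limma-voom adjusted p = 0.00167).

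AARS, the alanine enzyme, was at 232, 197 and 202 CPM in WT and 187, 163 and 171 CPM in KO libraries. WT 1 stood highest of all, and no KO library reached the lowest WT one. The change came to -0.29 ± 0.066 on the log2 scale (limma-voom adjusted p = 0.0091; 0.0502 without KO 2). EPRS, a fused enzyme for glutamate and proline, was at 458, 430 and 429 CPM in WT and 385, 374 and 356 CPM in KO libraries. The 3 KO values were all below the WT values, with a log2 fold change of -0.27 ± 0.045 (limma-voom adjusted p = 0.00179).

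YARS, the tyrosine enzyme, was at 425, 346 and 355 CPM in WT and 346, 296 and 309 CPM in KO libraries. Replicate 1 was the highest in both genotypes, and KO 1 overlapped the lowest WT library. The difference between genotypes was -0.27 ± 0.087 on the log2 scale (limma-voom adjusted p = 0.0439, and 0.000503 with replicate number in the model). LARS and NARS, for leucine and asparagine, passed narrowly (adjusted p = 0.0431 and 0.0483). The calls of LARS, NARS and YARS were each lost without WT 1 (log2 fold changes -0.12, -0.12 and -0.16), without KO 2 (-0.16, -0.16 and -0.21) and without KO 3 (-0.14, -0.12 and -0.25). That of LARS was also lost without WT 2 (-0.19) and that of NARS without WT 3 (-0.18).

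KARS was the cytosolic gene that rose. It was at 142, 151 and 147 CPM in WT and 165, 176 and 170 CPM in KO libraries. All KO values were above all WT values, with a log2 fold change of 0.20 ± 0.043 (limma-voom adjusted p = 0.00627). GARS, the other gene that serves both compartments, was at 269, 205 and 214 CPM in WT and 219, 195 and 195 CPM in KO libraries. KO 1 lay above 2 of the WT libraries, with a difference of -0.18 ± 0.091 on the log2 scale (limma-voom adjusted p = 0.172, and 0.0108 with replicate number in the model).

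**Figure D3:**
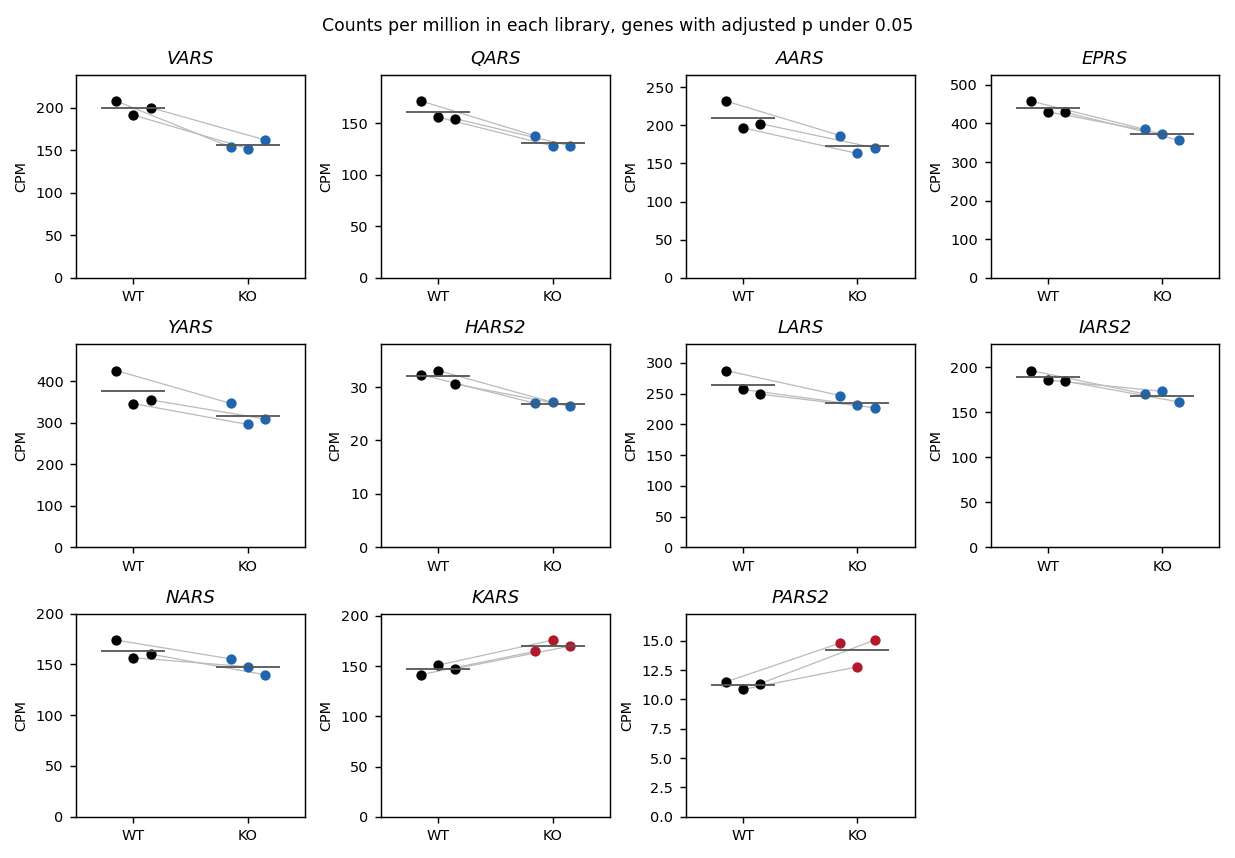
CPM in each library (points) and group mean (horizontal bars) for the 11 genes with an adjusted p below 0.05, WT in black, KO in blue where lower and red where higher, with grey lines joining libraries of the same number and axes from 0. YARS is the only one of the 11 whose WT and KO points overlap; KARS and PARS2 are higher in the KO.

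IARS, MARS and SARS, for isoleucine, methionine and serine, did not pass in the main fit but passed with replicate number in the model, like GARS. Some other fits without replicate number also called IARS, SARS or GARS. DESeq2 called IARS (adjusted p = 0.0143) and GARS (0.0421). Without both libraries numbered 1, limma-voom called IARS (adjusted p = 0.00532), SARS (0.0287) and GARS (0.0381). IARS had a log2 fold change of -0.16 (limma-voom adjusted p = 0.121, and 0.00623 with replicate number). MARS had -0.13 (0.178 and 0.0268) and SARS -0.14 (0.193 and 0.0144). Without WT 1 the values were nearer 0, at -0.083 for IARS, -0.046 for MARS, -0.057 for SARS and -0.057 for GARS. Without KO 1, SARS was at -0.21. Each of the 4 was lower in the KO in all 3 numbered pairs. Across the cytosolic genes 12 of 20 were lower in all 3 pairs, beside 28.1% of all genes. The CPM ranges of the genotypes did not overlap for 6 genes that were lower and 2 that were higher (KARS and FARSB), beside 17.6% and 24.5% of all genes.

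For 8 cytosolic genes neither model made a call. Of these, TARS (threonine) had a log2 fold change of 0.00080 with a 95% interval of -0.10 to 0.10. DARS (aspartate) was at 0.0022 (-0.09 to 0.09) and FARSA at -0.0047 (-0.13 to 0.12). CARS was at -0.026, but its interval was wide, -0.28 to 0.22. WARS (tryptophan) was at -0.04, RARS (arginine) at 0.04, FARSB at 0.06 and HARS (histidine) at 0.07. The intervals of TARS and DARS lay above the smallest decrease that passed, that of NARS (-0.16), whereas the interval of CARS held the fold changes of LARS, NARS and YARS.

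The leucine and serine enzymes, whose tRNAs THUMPD1 serves, were taken one by one. LARS was at 288, 257 and 249 CPM in WT and 247, 232 and 227 CPM in KO libraries, just without overlap, with a difference of -0.17 ± 0.056 on the log2 scale (limma-voom adjusted p = 0.0431). SARS was at 168, 142 and 144 CPM in WT and 154, 135 and 134 CPM in KO libraries. KO 1 exceeded WT 2 and WT 3. The value of -0.14 ± 0.073 passed with replicate number in the model, but not by genotype alone with all libraries. LARS2 was at 130, 125 and 129 CPM in WT and 116, 129 and 133 CPM in KO libraries, with the KO values on both sides of the WT ones (-0.05 ± 0.052, limma-voom adjusted p = 0.473). SARS2, at 31.9, 27.1 and 27.1 CPM in WT and 27.1, 26.2 and 29.2 CPM in KO libraries, also overlapped (-0.06 ± 0.071, adjusted p = 0.551). LARS and SARS were thus within the range of the other cytosolic genes, and 6 cytosolic genes had a more negative fold change than LARS.

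Mitochondrial synthetase genes were near the level of all genes in how often they passed. Of 16, 2 fell (HARS2 and IARS2), 1 rose (PARS2) and 13 did not pass, beside 13.0% lower and 13.7% higher among all genes. The median log2 fold change was -0.05, and -0.016 without KO 1. Their summed level was 883, 848 and 858 CPM in WT 1 to 3 and 812, 825 and 837 CPM in KO 1 to 3, or 95.6% of WT by the means, without overlap. With replicate number in the model 4 were lower and 1 higher, beside 16.7% and 18.4% of all genes, with EARS2 (-0.17, limma-voom adjusted p = 0.0748 and then 0.0401) and VARS2 (-0.14, 0.0931 and then 0.0337) added. The ranges did not overlap for 3 lower and 3 higher genes, beside 17.6% and 24.5% of all genes, and 6 were lower in all 3 pairs, beside 28.1%. Without KO 1, EARS2 was at -0.087, and without KO 2, VARS2 was at -0.086.

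HARS2, the mitochondrial histidine enzyme, was at 32.3, 33.1 and 30.6 CPM in WT and 26.9, 27.1 and 26.4 CPM in KO libraries. The groups were clearly apart, with a log2 fold change of -0.25 ± 0.056 (limma-voom adjusted p = 0.00778). Its neighbour HARS, the cytosolic histidine enzyme, lies head to head with it on chromosome 5 and was at 77.5, 81.0 and 75.7 CPM in WT and 83.7, 83.7 and 80.5 CPM in KO libraries. HARS values overlapped slightly between the groups and its difference was 0.07 ± 0.044 on the log2 scale (adjusted p = 0.246). The RefSeq starts of the genes are 85 bases apart and their promoter windows share 184 bases. Both CCGGAAG matches of HARS are the same sites as the 2 of HARS2. They are shown on the HARS2 strand because the same sites lie in the windows of a gene that fell and of a gene that did not pass.
HARS2, 82 bases before its start, chr5:140691362-140691391: agcaaggatgaCTTCCGGctatcgagtcgc
HARS2, 8 bases before its start, chr5:140691436-140691465: tccggctcctcCCGGAAGtgccgaagctgg
The annotated genes HARS and HARS2 overlap on opposite strands. The library kit keeps strand, but whether the counting used it is not given in the sources used here. Without it, reads of that overlap cannot be told apart. HARS2 also overlaps ZMAT2, a gene on the same strand, where strand would not separate reads.

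IARS2, the mitochondrial isoleucine enzyme, was at 196, 186 and 185 CPM in WT and 170, 173 and 161 CPM in KO libraries, without overlap (-0.17 ± 0.044, limma-voom adjusted p = 0.0153; 0.069 without KO 3). It lies on chromosome 1 near EPRS, which also fell, and the median log2 fold change of the 15 genes tested within 1 Mb of IARS2 was -0.024. PARS2, the mitochondrial proline enzyme, had the lowest level per kb and rose. It was at 11.5, 10.9 and 11.3 CPM in WT and 14.8, 12.8 and 15.1 CPM in KO libraries, each KO value above each WT value (0.33 ± 0.081, limma-voom adjusted p = 0.0132; 0.0546 without KO 3).

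The other mitochondrial enzymes lay between a log2 fold change of -0.11 and 0.09 and passed in neither model. YARS2 (tyrosine, -0.11), TARS2 (threonine, -0.11) and WARS2 (tryptophan, -0.04) were on the negative side. NARS2 (asparagine, 0.0090), AARS2 (alanine, 0.04), FARS2 (phenylalanine, 0.05), CARS2 (cysteine, 0.09) and RARS2 (arginine, 0.09) were on the positive side, and MARS2 (methionine) was at -0.000033. AIMP1 (-0.04, limma-voom adjusted p = 0.692) and AIMP2 (-0.12, adjusted p = 0.241), which hold the multisynthetase complex together, did not pass either.

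Set side by side in the pairs matched by symbol, the cytosolic gene had the more negative log2 fold change in 10 of 15, with a median difference of -0.07. Among these pairs the widest gaps were for alanine, with AARS at -0.29 and AARS2 at 0.04, and in the other direction for histidine. EPRS, at -0.27, was outside these pairs, while EARS2 was at -0.17 and PARS2 at 0.33. The sum of the cytosolic genes divided by that of the mitochondrial genes was 5.11, 4.80 and 4.73 in WT 1 to 3 and 4.96, 4.60 and 4.49 in KO 1 to 3. It was lower in the KO within each numbered pair, but KO 1 lay above WT 2 and WT 3, and the difference between the 2 groups of genes was not tested.

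Cytosolic enzymes of the 2 structural classes were then counted apart. Of the 10 class I genes, 9 had a negative log2 fold change, with a median of -0.16, and 5 fell (VARS, QARS, EPRS, YARS and LARS). Of the 10 class II genes, 5 were negative, with a median of -0.0019; 2 fell (AARS and NARS) and KARS rose. Among all genes 13.0% were lower and 13.7% higher. With replicate number in the model the counts lower were 7 and 4, beside 16.7% of all genes. In the multisynthetase complex, which holds the enzymes DARS, EPRS, IARS, KARS, LARS, MARS, QARS and RARS, 3 of 8 fell and 1 rose, with a median of -0.14, while outside it 4 of 12 fell, with a median of -0.09.

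Grouping by ATF4 set the cytosolic genes apart more widely. Of 13 genes listed as recognized ATF4 targets (AARS, CARS, EPRS, GARS, IARS, LARS, MARS, NARS, SARS, TARS, VARS, WARS and YARS), 12 had a negative log2 fold change, 6 fell and none rose, with a median of -0.16, beside 13.0% lower among all genes. With replicate number in the model 10 of the 13 were lower, beside 16.7%. Of the other 7 (DARS, FARSA, FARSB, HARS, KARS, QARS and RARS), QARS fell and KARS rose, with a median of 0.04. ATF4 mRNA itself was at 626, 516 and 542 CPM in WT and 473, 425 and 422 CPM in KO libraries, without overlap, a log2 fold change of -0.37 ± 0.079 (limma-voom adjusted p = 0.00604). The 27 genes tested within 1 Mb of ATF4 on chromosome 22 had a median of -0.30. Whether the level of ATF4 mRNA had a part in the synthetase values was not tested, and the list was drawn up with earlier results of these data known.

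Some cytosolic genes also differed between the libraries numbered 1 and those numbered 2 and 3. In the model with genotype and replicate number, 6 cytosolic genes were higher in replicate 1 than in the mean of replicates 2 and 3 (CARS, GARS, YARS, SARS, IARS and AARS; limma-voom adjusted p = 0.0136 to 0.0424). No mitochondrial gene and neither AIMP gene passed in that direction, beside 1.06% of all genes. All 6 are among the 13 genes on the list of ATF4 targets, and only AARS and YARS of them fell in the KO by genotype alone. VARS, QARS and EPRS fell in the KO and did not pass here (adjusted p = 0.81, 0.109 and 0.197). CARS had the largest difference, 0.35 on the log2 scale, at 74.8, 53.4 and 53.2 CPM in WT and 65.9, 56.0 and 55.1 CPM in KO libraries. Both libraries numbered 1 stood above the other 4, although CARS showed no call between genotypes. ATF4 was also higher in replicate 1, by 0.24 (adjusted p = 0.0184).

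The cytosolic genes were also described by the promoter sites shown above, with no test of the difference. The 7 genes with TGATGNAA had a median difference of 0.19 between replicate 1 and the others, and 4 passed (AARS, CARS, GARS and IARS) while MARS, NARS and TARS did not. Of the 9 genes with a window and no match, SARS passed, and the median was -0.0035. YARS passed with no window to search. Taken within each genotype, the median of the 7 genes was 0.21 in WT and 0.17 in KO libraries. Between KO and WT the median log2 fold change was -0.16 for the 7 genes and -0.0047 for the 9 genes, but VARS, YARS and LARS, which fell, had no window to search, and QARS and EPRS fell with no match. Values over these groups describe genes chosen after their levels were seen.

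**Figure D4:**
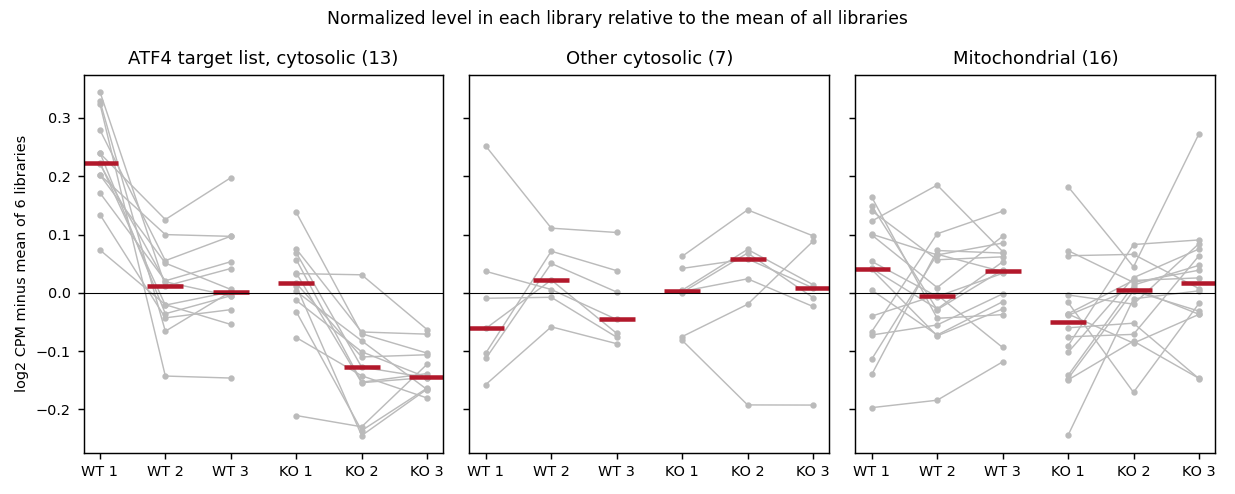
Normalized log2 CPM of each gene in each library minus the mean of the 6 libraries, for the 13 cytosolic genes listed as ATF4 targets, the 7 other cytosolic genes and the 16 mitochondrial genes; each grey line is one gene and red bars are medians. The median of the listed genes is 0.22 in WT 1, near 0 in WT 2, WT 3 and KO 1 (0.012, 0.0019 and 0.016), and -0.13 and -0.15 in KO 2 and KO 3.

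By the median, KO 1 was thus near WT 2 and WT 3 for the listed genes, but for VARS, EPRS, AARS, LARS and NARS it lay below both. The median log2 fold change of all 20 cytosolic genes was -0.17 in pair 1, -0.09 in pair 2 and -0.12 in pair 3. Without the libraries numbered 1 in either genotype, 10 cytosolic genes were lower and 1 higher, beside 15.7% and 16.6% of all genes in that fit, and the median was -0.10. For the mitochondrial genes that comparison gave 2 lower and 1 higher. What sets the libraries numbered 1 apart is not stated in the labels.

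Other genes of tRNA charging were taken from a list of 17, with tRNA export, editing and the mitochondrial amidotransferase among its functions, and 2 passed, 1 in each direction, beside 26.7% of all genes in either direction. XPOT, the exportin that carries mature tRNA to the cytosol, was at 461, 417 and 429 CPM in WT and 358, 345 and 332 CPM in KO libraries. It fell by 0.36 on the log2 scale (SE 0.051, limma-voom adjusted p = 0.000584), with no overlap and a size near that of VARS. PSTK, the kinase that acts on seryl-tRNA on the way to selenocysteine, was at 7.12, 5.62 and 6.41 CPM in WT and 8.36, 8.50 and 8.72 CPM in KO libraries. PSTK rose by 0.40 (SE 0.097, adjusted p = 0.0123; 0.0555 without WT 2 and 0.0512 without KO 2). The median of the 17 was 0.021, close to that of all genes. EEF1A1 is among the 17, and quantile normalization gave it the same value in every library, so this fit could not call it. With edgeR it did not pass (adjusted p = 0.425).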

How the data were processed

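RNA-seq of 3 WT and 3 THUMPD1 KO HEK-293T libraries was used as the expected counts per gene that the authors deposited, made with STAR and RSEM on hg38. Totals of 32225646 to 44099898 per library limit precision for genes of low level. Here, genes reaching 1 CPM in 3 or more libraries were quantile normalized and tested with limma-voom (limma 3.58.1, R 4.3.3) on genotype, two-sided, with Benjamini-Hochberg adjustment over 15088 genes. The study's methods name no block. Deviations from group means correlated at 0.171, 0.147 and 0.138 for libraries of the same number (-0.140 to 0.0194 otherwise), so the numbers were taken to pair libraries, and the blocked value is given where it changes a call. The comparison of replicate 1 with 2 and 3, the fit without both libraries numbered 1 and the motif search were added after the data were seen. edgeR 4.0.16 and DESeq2 1.42.0 on rounded counts, other scalings and filters, GC content and length correction, sample weights and leaving out each library were alternatives. The fits were tested on simulated data. CPM uses all deposited counts. Positions and transcript lengths came from GENCODE 44, which holds 99.3% of the deposited gene IDs. Symbols are those of the table (AARS is now AARS1), and 32 members had a promoter entry. Among the members, 30 overlap another annotated gene. Pseudogenes named after members (14) held at most 3 counts in a library. Every member is named with a value. Values of each library are given for members with an adjusted p below 0.05 and a change of 0.2 or more on the log2 scale in either direction, and for LARS, SARS, LARS2 and SARS2, with a few others added after their values were seen. Accessory genes are named where called. Members and lists were chosen with earlier results of these data known.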

Additional observations from a re-analysis of the deposited data

How the results depend on the processing

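The direction of the 11 called members held under the 17 alternatives fitted, and VARS, QARS, EPRS, KARS and HARS2 stayed past the threshold in each. The number of cytosolic genes called, 8, was 5 with no CPM filter, which tests 31730 genes, 5 at an adjusted p below 0.01, 12 with the replicate block and 4 to 9 when each library was left out. Their median of -0.13 ran from -0.19 (without KO 1) to -0.06 (without WT 1). The mitochondrial median of -0.05 ran from -0.07 (without WT 2) to -0.016 (without KO 1). Of mitochondrial genes, 3 were called, against 5 with the replicate block, 5 with the block and GC content and length removed, 1 at an adjusted p below 0.01 and 1 (without KO 3) to 4 when each library was left out. Accessory genes called, 2, were 4 with GC content and length removed, 5 with the block added, 5 with sample weights, 4 without both libraries numbered 1 and 1 to 3 when each library was left out. The cause was not tested.

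Sign changes touched members with no call and a value near 0. With GC content and length removed, CARS was 0.017, DARS -0.064, FARSA 0.071, RARS -0.024, TARS -0.057, NARS2 -0.038 and SARS2 0.0013, and with the replicate block added to that, 0.013, -0.064, 0.071, -0.024, -0.057, -0.041 and 0.00046. With TMM library sizes, DARS was -0.0049, TARS -0.014 and NARS2 -0.014. With edgeR they were -0.0049, -0.014 and -0.017, and with DESeq2 -0.0042, -0.013 and -0.017. Sample weights gave CARS 0.061, NARS2 -0.023 and SARS2 0.0077. Without both libraries numbered 1, CARS was 0.060, LARS2 0.016, NARS2 -0.030 and SARS2 0.029. Total counts gave FARSA 0.024, and no CPM filter gave MARS2 0.00014. Leaving out each library gave CARS -0.11 to 0.13, DARS -0.020 to 0.022, FARSA -0.057 to 0.031, RARS -0.0066 to 0.075, TARS -0.026 to 0.038, WARS -0.091 to 0.016, LARS2 -0.090 to 0.0024, MARS2 -0.074 to 0.051, NARS2 -0.048 to 0.044, SARS2 -0.10 to 0.0075 and AIMP1 -0.092 to 0.00080.

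The median SE of the members was 0.057 on the log2 scale, so changes well below the smallest call cannot be told from 0 here, and a single KO clone limits what the contrast stands for.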
